A study of Mus musculus with 13 samples.

Results

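Satellite repeats are tandem arrays of short units that make up the heterochromatin at and around mouse centromeres. The deposited small RNA tables list 268 repeat sequences, and 4 of them are satellites, which were chosen by name: GSAT_MM, the major or gamma satellite of pericentromeric heterochromatin, CENSAT_MC, a centromeric satellite, and 2 further satellite sequences, MMSAT4 and SYNREP_MM. The other rows are 19 LINE, 237 LTR and 6 SINE sequences and 2 further rows. The male germ cells came from C57BL6/J mice of 3 to 4 weeks and were sorted by flow cytometry after staining of their DNA with a Hoechst dye. In one set of 5 libraries, 1 library each came from spermatogonia (SG), from spermatocytes in pachytene or diplotene (PD) and from round spermatids (RS), and 2 came from leptotene/zygotene spermatocytes (LZ). In the other set, 2 spermatogonial samples (SG_T) and 2 leptotene/zygotene samples (LZ_T) were each sequenced in a 50-bp and a 100-bp run, giving 8 libraries, and the values of both runs were averaged. No label gives a genotype for either set. Header cells of the 8 tables of the second set name a knockout of Pld6, a mitochondrial endonuclease needed to make piRNA 5′ ends, so the difference in genotype and any other difference between the sets cannot be told apart. Small RNA libraries measure neither the Pld6 mRNA nor the marker mRNAs of the stages, so neither was checked here.

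PIWI-interacting RNAs (piRNAs) are germline small RNAs, taken here as reads of 24-33 nt, that guide PIWI proteins to transcripts of transposons and other repeats. Primary piRNAs usually begin with U, and the partners cut in response to them often carry A at position 10. Transcripts of pericentromeric satellites occur in many mouse tissues, and in other organisms small RNAs from such repeats take part in forming heterochromatin.

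The files hold no satellite consensus, but reads in the sequence lists could be compared with a genomic stretch that is annotated in GRCm38. An exon of the long noncoding RNA gene Gm26870 lies at chr9:3024048-3024631 on the minus strand and consists of units that repeat every 234 bases with 94.0% identity from one unit to the next. It stands for GSAT_MM below, and it was chosen after both long exons of the transcript had been compared with the table. Its first unit, at chr9:3024398-3024631 on the minus strand, is shown because it carries the A-rich sense strand that the reads follow.
Gm26870 exon, first unit: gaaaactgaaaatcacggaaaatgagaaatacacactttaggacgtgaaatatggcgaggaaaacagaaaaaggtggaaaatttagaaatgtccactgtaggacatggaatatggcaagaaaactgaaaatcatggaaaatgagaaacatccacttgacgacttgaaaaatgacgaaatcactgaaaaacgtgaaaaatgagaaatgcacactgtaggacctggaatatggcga

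From the reads of 24-30 nt found most often, 2 of each strand are shown next, with T for U and with capitals at positions 1 and 10, the positions of the U and the A that mark piRNAs.
Sense, 26 nt: TagaaatgtCcactgtaggacatgga
Sense, 28 nt: AgaaatacaCactttaggacgtgaaata
Antisense, 27 nt: TgattttcaGttttctcgccatattcc
Antisense, 30 nt: TttcaagtcGtcaagtggatgtttctcatt
All 4 matched the exon without a mismatch. None of the 4 carries A at position 10, and the second sense read begins with A instead of U. The first sense read was counted 3 times, all in 1 sample of the single-library set, and the second 2 times, in 2 samples of the technical-replicate set. The first antisense read was counted 3 times in 2 samples of the single-library set and the second 2 times in 2 samples of the technical-replicate set. No sequence was abundant: of the 99 distinct sense sequences of 24-30 nt, 92 were counted once over all 13 libraries, and of the 38 antisense sequences, 32 were counted once.

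Satellites gave few small RNAs of piRNA length. In RPM, the read number scaled by the authors to the total reads of each library, the 4 rows together held 1.2 to 8.29 RPM at 24-33 nt, which was 0.00684% to 0.0769% of the RPM of all listed sequences. Their values at this length were whole reads in all 26 nonzero entries, within 0.25 reads, so reads could be counted. Over the 13 libraries MMSAT4 had 256 reads of 24-33 nt, GSAT_MM 150 and SYNREP_MM 12, while CENSAT_MC had 0. By mean RPM over the 9 samples, MMSAT4 ranked 124 and GSAT_MM 128 among the 268 sequences. Library totals were 12541019 to 29956080 reads in the single-library set and, with both runs summed, 1810805 to 10764026 reads in the technical-replicate set. One read was worth 0.0334 to 0.0797 RPM in the single-library set, and 3 reads, the limit that a count of 0 allows, were worth 0.279 to 1.66 RPM in the samples of the technical-replicate set. Intervals given for reads cover counting error only.

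In RPM, MMSAT4 was highest in spermatogonia of the single-library set. It stood at 6.64 RPM (88 reads) in SG, 1.90 RPM (57 reads) and 1.78 RPM (31 reads) in the LZ replicates, 2.71 RPM (36 reads) in PD and 1.12 RPM (14 reads) in RS. Pooled LZ reads gave 0.280 times the SG level (95% exact interval 0.206 to 0.381). PD was 1.46 times LZ, with an interval of 0.962 to 2.17 that includes 1, and RS was 0.412 times PD (0.205 to 0.783). Both steps depended on the scaling: PD was 2.67 times LZ after rescaling to the summed RPM of the listed retrotransposons and 4.86 times LZ after rescaling to 20-23 nt reads, and RS was 0.965 times PD after the first of these. The peak in SG depended on the scaling too. After rescaling to 20-23 nt reads LZ was 0.391 times SG, which placed PD above SG. Fewer cells of a type and less RNA per cell cannot be told apart in such bulk samples, and SG, PD and RS have no replicate. The most abundant LINE sequence listed, L1_Mm_orf2, the second open reading frame of the L1 retrotransposon, was at 5125 RPM in SG, 1676 and 4402 RPM in the LZ replicates, and 266 and 179 RPM in PD and RS. IAPEz-int, the internal part of an LTR retrotransposon, was at 6982 RPM in SG, 4996 and 9694 RPM in the LZ replicates, and 3099 and 1161 RPM in PD and RS.

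The strand of MMSAT4 reads differed between stages. In SG, 80 of the 88 reads were sense, and the antisense share was 9.04% of the RPM (95% Wilson interval 4.68% to 16.9%). In the LZ replicates the antisense share was 29.8% (19.5% to 42.7%) and 29.2% (16.1% to 46.6%). In PD only 4 reads were sense and 32 were antisense, a share of 88.9% (74.7% to 95.6%). In RS the share was 28.6% (11.7% to 54.7%), with 4 antisense reads among 14. The PD interval overlapped none of the other 4, although each of SG, PD and RS is a single library. Antisense shares of the transposon classes were also higher in PD than in LZ. LINE sequences stood at 45.4% and 45.4% in LZ against 68.3% in PD. LTR sequences stood at 49.0% and 40.8% against 70.9%, and SINE sequences at 35.1% and 36.4% against 79.2%. In RS the LINE, LTR and SINE shares were 56.95%, 61.3% and 75.7%, against the 28.6% of MMSAT4.

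In RPM, both strands contributed to the change of the MMSAT4 share. Sense MMSAT4 reads of 24-33 nt went from 6.04 RPM in SG to 1.34 and 1.26 RPM in the LZ replicates, and were 0.30 RPM in PD and then 0.80 RPM in RS. Antisense reads were 0.60 RPM in SG, 0.57 and 0.52 RPM in the LZ replicates, and 2.41 and 0.32 RPM in PD and RS. PD thus held 4.39 times the antisense level of LZ (2.54 to 7.67) and 0.230 times its sense level (0.0608 to 0.620). Rescaling raised the PD level of both strands together to 2.67 or 4.86 times LZ. It was not applied to each strand, so whether the lower sense level in PD holds under other scalings was not tested. Of the 32 antisense reads in PD, 29 were 28-33 nt long and 3 were 24-27 nt long, whereas the sense reads of SG were split evenly between these lengths, at 2.98 and 3.06 RPM.

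**Figure D1:**
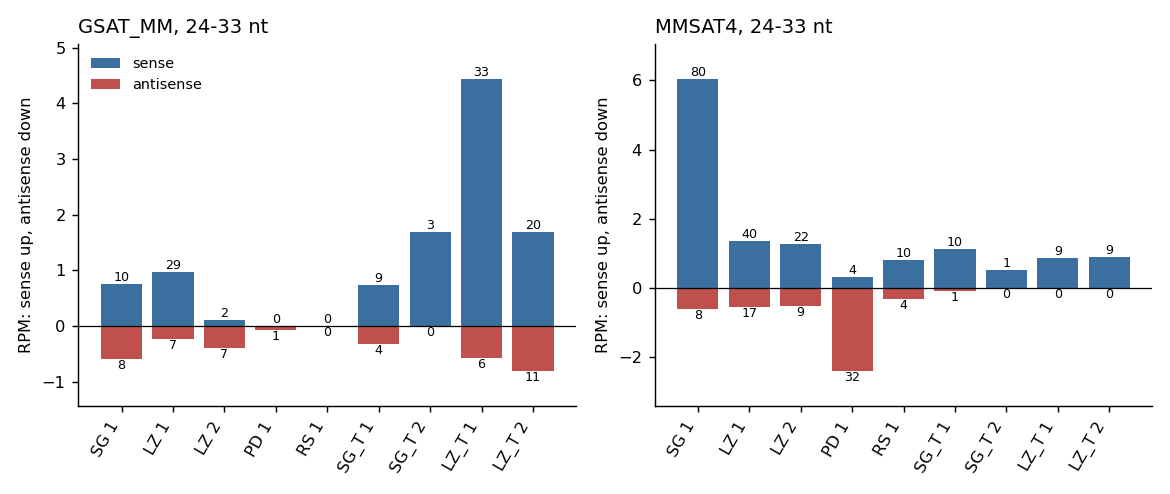
Sense RPM (upward bars) and antisense RPM (downward bars) of 24-33 nt reads for GSAT_MM and MMSAT4 in the 9 samples, runs averaged, with the number of reads printed on each bar. MMSAT4 in PD is the bar pair with 4 sense and 32 antisense reads, and the tallest GSAT_MM bar is the 33 sense reads of LZ_T replicate 1.

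A shorter class of MMSAT4 reads followed another course. Sense reads of 19-23 nt stood at 1.04 RPM (14 reads) in SG, 3.46 RPM (104 reads) and 2.46 RPM (43 reads) in LZ, 10.2 RPM (135 reads) in PD and 14.6 RPM (183 reads) in RS. Each step was beyond counting error: LZ was 2.94 times SG (1.70 to 5.51), PD 3.28 times LZ (2.57 to 4.17) and RS 1.44 times PD (1.14 to 1.81). Antisense reads of this length stayed at 0.07 to 0.38 RPM in the same 5 libraries. These 19-23 nt reads made up 41.2% of the MMSAT4 RPM at 11-48 nt in PD and 41.4% in RS, against 5.88% in SG. At 24-33 nt the largest share was the 35.2% of SG. The libraries themselves changed in the opposite direction at nearly this length. Reads of 20-23 nt were 29.2% of all reads in SG and 6.27% and 6.41% in PD and RS. The part of this in the MMSAT4 values was not tested. At 19-23 nt LINE sequences had 13.8% of their RPM in SG, 24.3% in PD and 31.1% in RS. For LTR sequences this was 4.61%, 10.3% and 10.2%, and for SINE sequences 64.7%, 26.1% and 35.5%. The LINE antisense share at this length was 46.75%, 16.7% and 11.6%. It was 40.1%, 46.9% and 35.0% for LTR and 76.95%, 67.45% and 69.1% for SINE sequences. LINE sense reads did not rise, at 1373, 982 and 1275 RPM.

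GSAT_MM reads of piRNA length were nearly absent from the later stages. The row stood at 1.34 RPM (18 reads) in SG, 1.2 RPM (36 reads) and 0.52 RPM (9 reads) in LZ and 0.08 RPM (1 read) in PD. RS held 0 reads, which allows up to 0.239 RPM. LZ was 0.701 times SG with an interval of 0.398 to 1.29, so no difference between these stages was detectable at this depth, while PD was 0.0793 times LZ (0.00196 to 0.465) on 1 read. With the LZ replicates averaged, this ratio was 0.0930, and it became 0.154 after rescaling to the listed retrotransposon total and 0.300 after rescaling to 20-23 nt reads. Sense and antisense reads of GSAT_MM were both present: 10 and 8 reads in SG, 29 and 7 in LZ replicate 1, and 2 and 7 in LZ replicate 2. The LZ replicates lay on opposite sides of an equal split, with antisense shares of 19.2% (9.75% to 35.0%) and 78.4% (45.3% to 93.7%). The interval of LZ replicate 2, from 9 reads, includes an equal split, so a common strand bias of the group in GSAT_MM was not resolved.

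**Figure D2:**
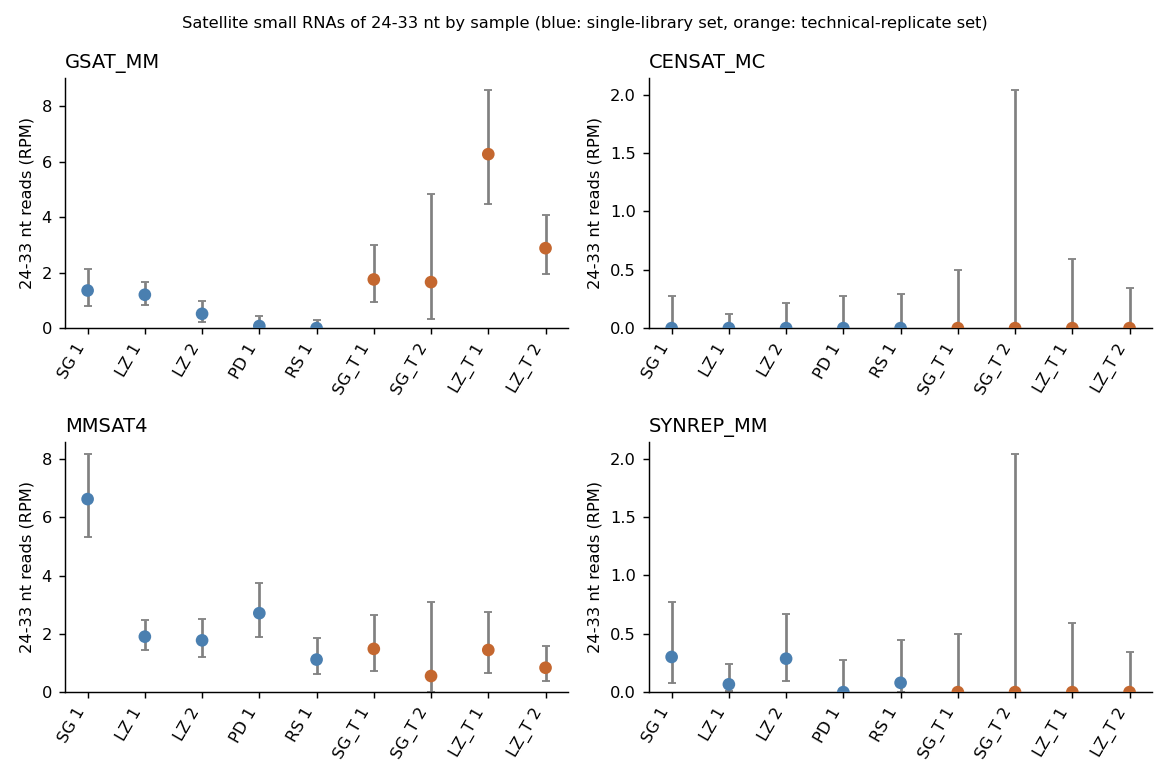
RPM of 24-33 nt reads (vertical axis, 1 panel per satellite, scales differ) in the 9 samples, taken from the summed reads of both runs where there are 2, with 95% exact Poisson intervals of the counts. MMSAT4 peaks in SG, GSAT_MM peaks in LZ_T, and CENSAT_MC lies at 0 throughout.

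In the technical-replicate set the comparison of leptotene/zygotene cells with spermatogonia asks how the satellites differ between these stages within that set. GSAT_MM was at 1.06 and 1.70 RPM in SG_T (13 and 3 reads) and at 5.0 and 2.51 RPM in LZ_T (39 and 31 reads). The groups did not overlap, with 3.76 ± 1.76 RPM in LZ_T against 1.38 ± 0.453 RPM in SG_T (SD, n = 2 each). The log2 difference on the log2(RPM + 1) scale was 0.96 (SE 0.38), which missed the threshold of 0.05 in the limma fit over 60 sequences (Benjamini-Hochberg adjusted p = 0.0545). Without LZ_T replicate 2 it was 1.35 and passed (limma adjusted p = 0.034). The two-sided exact permutation test gave p = 0.333, the smallest it allows with 2 against 2 samples. Summed reads gave a ratio of 2.38 (1.37 to 4.38). In this fit 22 sequences, or 36.7% of those tested, were higher in LZ_T and 0 were lower after adjustment. Without adjustment, limma gave 1 lower sequence with p under 0.05. Of the transposon classes, all 6 SINE sequences rose, 16 of 33 LTR sequences rose, and 0 of 19 LINE sequences passed. When values were rescaled to the summed RPM of the listed retrotransposons, 0 sequences were higher and 52 of 90 were lower in LZ_T, and the GSAT_MM difference turned to -1.16 (adjusted p = 0.103); the RPM of all listed sequences summed to 3829 and 2880 in SG_T and to 22540 and 23540 in LZ_T. MMSAT4 had 1.21 and 0.52 RPM in SG_T and 0.85 and 0.885 RPM in LZ_T, too low for the filter of a mean of 1 RPM, and the groups overlapped.

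Between the sets, GSAT_MM was higher in LZ_T than in LZ, and MMSAT4 was not. LZ had 1.2 and 0.52 RPM of GSAT_MM, below both LZ_T samples, a mean of 0.860 ± 0.481 RPM (SD, n = 2). The log2 difference was 1.33 (SE 0.44, limma adjusted p = 0.00341 over 139 sequences), and the two-sided exact permutation test gave p = 0.333, the smallest it allows. Only 5 sequences, 3.6% of those tested, were higher in LZ_T, while 125, or 89.9%, were lower. Besides GSAT_MM, the 5 were 3 SINE sequences and the RNA polymerase III transcript BC1_Mm, whereas all 19 LINE and 106 of 111 LTR sequences were lower. Summed reads of GSAT_MM gave 4.34 times the LZ level (2.94 to 6.46), with ratios of 4.77 (3.01 to 7.69) for sense and 3.39 (1.57 to 7.43) for antisense reads. The call was lost without LZ replicate 1 (log2 difference 1.59, adjusted p = 0.0793), without LZ replicate 2 (1.06, adjusted p = 0.168) or without LZ_T replicate 1 (0.94, adjusted p = 0.171). It was also lost after rescaling to 20-23 nt reads (limma adjusted p = 0.0762), with the 50-bp run only (0.0883) and with no filter on low values (0.0537).

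MMSAT4 was at 1.84 ± 0.0849 RPM in LZ and 0.868 ± 0.0248 RPM in LZ_T (SD, n = 2 each), without overlap. Its log2 difference of -0.60 (SE 0.44) did not pass (limma adjusted p = 0.182), but it passed without LZ replicate 1 (-0.57, adjusted p = 0.0359) and without LZ replicate 2 (-0.64, adjusted p = 0.0341). It also passed after rescaling to 20-23 nt reads (-0.94, limma adjusted p = 0.0159) and with no filter on low values (limma adjusted p = 0.0109). Summed reads gave 0.571 times the LZ level (0.324 to 0.956), and all 18 MMSAT4 reads of LZ_T were sense, against 62 sense and 26 antisense reads in LZ. In spermatogonia, the SG_T samples together had 12 reads of MMSAT4 against 88 in SG, a ratio of 0.196 (0.0978 to 0.361), with no test because SG has 1 library. GSAT_MM in the same cells had 16 reads against 18, a ratio of 1.28 (0.611 to 2.66). Outside piRNA length, sense GSAT_MM reads of 19-23 nt in SG_T were 4.14 times SG (1.79 to 10.7). In LZ_T they were 3.34 times LZ (2.31 to 4.85). The stage difference was also set against the other set in 1 fit over 143 sequences, in which the lone SG library was assumed to vary like the replicated groups. Its interaction term was 1.32 (SE 0.60, limma adjusted p = 0.154) for GSAT_MM and 1.45 (SE 0.51, limma adjusted p = 0.0811) for MMSAT4. Neither passed the threshold. Of the 143 sequences, 7.69% had a higher and 11.2% a lower term at an adjusted p under 0.05.

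Across the 9 samples the sequences with the profile most like that of GSAT_MM, among the 73 sequences whose mean reached 10 RPM, were BC1_Mm (Pearson's r of log2(RPM + 1) = 0.869), B1_Mm (0.866) and B1_Mus2 (0.857), the last 2 being SINE sequences. Those of MMSAT4 were 3 LINE sequences, L1_Mus3_3end (r = 0.805), L1Md_F2_3end (0.803) and L1_Mus3_orf2 (0.801). These values share their libraries and their depth, and they describe the 9 samples only. B1_Mm stood at 2138 RPM in SG, 1130 and 1719 RPM in LZ, 1080 and 872 RPM in SG_T, and 7352 and 8368 RPM in LZ_T.

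Reads matched to the Gm26870 exon with up to 2 mismatches followed the GSAT_MM row. At 24-33 nt they numbered 170 against 150 in the table, and in 24 of 26 pairs of library and strand both numbers lay within 3 reads of each other (r = 0.985). Counted in this way, GSAT_MM in LZ_T was 3.79 times LZ and 2.17 times SG_T. These are largely the same reads, and the exon had been chosen with the GSAT_MM row in view, so this is no separate test. Many of the 26 values of that row were themselves 3 reads or fewer, where agreement within 3 reads is easily reached. Of the 170 reads, 51 matched without a mismatch. Reads of the antisense strand began with U in 65.4% (46.2% to 80.6%, Wilson) of 26 cases in the single-library set and in 82.1% (64.4% to 92.1%) of 28 cases in the technical-replicate set. Sense reads began with U in 28.6% (17.8% to 42.4%) of 49 and 14.9% (8.31% to 25.3%) of 67 cases. A stood at position 10 in 36.7% and 31.3% of the sense reads and in 15.4% and 7.14% of the antisense reads of the single-library and the technical-replicate set. By position in the unit, sense and antisense reads overlapping by 10 nt at their 5′ ends formed 0 pairs in the single-library set. In the technical-replicate set they formed 6 pairs, against 10 at an overlap of 2 nt. The exon itself is 44.4% A and 18.8% T on its sense strand, so that U is the commonest base of its antisense strand. Among all 24-33 nt reads, U led in 65.8% to 86.9% of the single-library set and in 31.5% to 42.3% of the technical-replicate set.

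Matched reads were spread over all lengths, with few reads at each. Between 19 and 33 nt, the level in LZ_T was highest at 20 nt, with 1.29 RPM, and went down through 0.765 RPM at 24 nt and 0.471 RPM at 28 nt to 0.0589 RPM at 33 nt. In LZ this was 0.569 RPM at 20 nt, 0.127 RPM at 24 nt and 0.211 RPM at 28 nt. SG_T was highest at 19 nt, with 1.19 RPM, and had 0.650 RPM at 24 nt, while SG was highest at 29 nt, with 0.301 RPM on 4 reads.

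**Figure D3:**
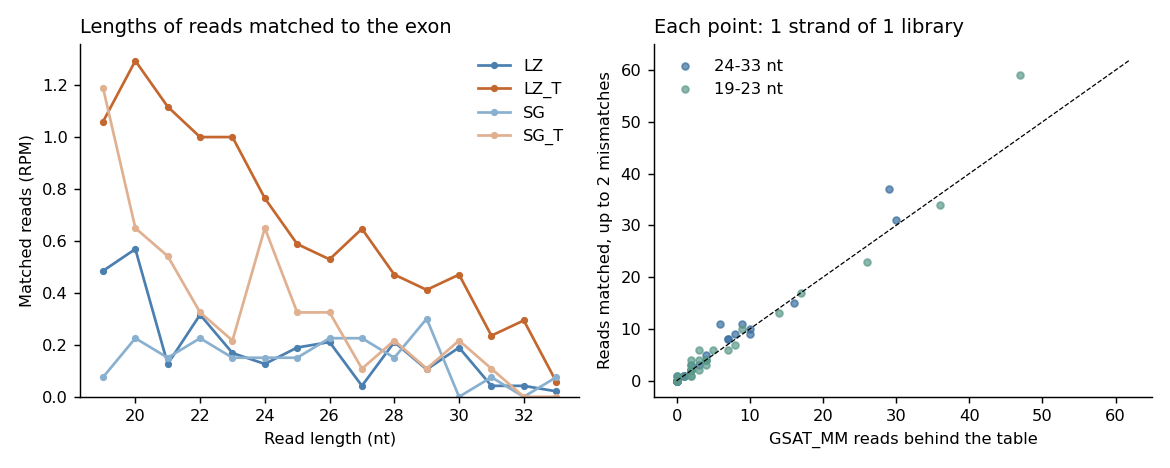
Left, RPM of reads matched to the Gm26870 exon with up to 2 mismatches, by read length (19-33 nt), for SG, LZ, SG_T and LZ_T with samples and runs summed. Right, for each strand of each library, matched reads against the reads behind the GSAT_MM row at 24-33 nt and 19-23 nt, with the line of equality; the points lie along it.

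Most of the satellite signal in the tables lay at 11-18 nt, but whether reads this short came from satellites was not tested. Of the nonzero satellite values at 11-18 nt, 50% (sense) and 51.9% (antisense) were whole reads within 0.25 reads. This length held 87.7% to 99.3% of the GSAT_MM RPM at 11-48 nt, 98.1% to 100% of CENSAT_MC, 90.7% to 100% of SYNREP_MM and 47.6% to 87.2% of MMSAT4, compared with 20.7% to 85.3% for LINE, 52.9% to 98.2% for LTR and 11.6% to 44.4% for SINE sequences. Sense GSAT_MM reads of 11-18 nt were at 35.4 RPM in SG, 49.5 and 40.3 RPM in LZ, and 29.4 and 38.8 RPM in PD and RS; they were at 81.5 and 84.4 RPM in SG_T and 91.2 and 124.5 RPM in LZ_T. With runs averaged, both values of each group of the technical-replicate set lay above every value of the other set. The 100-bp run of SG_T replicate 1 alone, at 43.2 RPM, lay below the 49.5 RPM of LZ replicate 1. Reads of 11-18 nt were 5.26% to 30.02% of the single-library set and 25.5% to 46.3% of the technical-replicate set, and in the latter set the 50-bp run gave the higher value in each of the 4 samples, as with 119.8 against 43.2 RPM in SG_T replicate 1; the part of either in the result was not tested. At 11-18 nt the exon was matched by 631 reads without a mismatch, by 9149 with up to 1 and by 206553 with up to 2, against 6783 reads behind the GSAT_MM columns, so the matches did not follow the table at this length as they did at 24-33 nt.

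**Figure D4:**
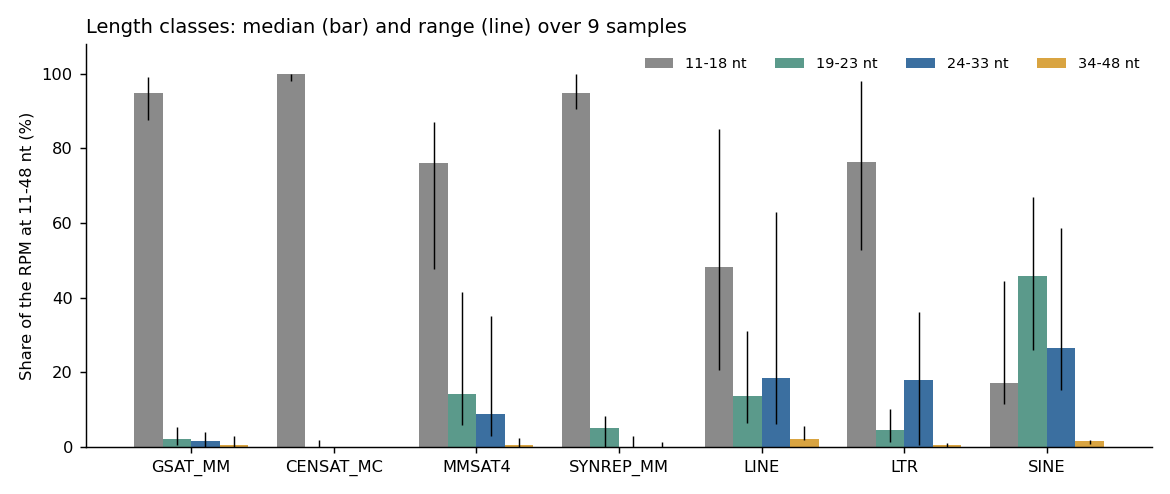
Share of the RPM at 11-48 nt (vertical axis, percent) in 4 length classes for each satellite and for the summed LINE, LTR and SINE sequences, as the median (bar) and the lowest and highest value (line) of 9 samples. The median share of 11-18 nt is 94.8% for GSAT_MM and 100% for CENSAT_MC, against 48.3% for LINE sequences.

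The remaining satellites were almost confined to short reads. CENSAT_MC had 0 reads of 24-33 nt in all 13 libraries, which allows up to 0.1001 to 0.239 RPM in the single-library set. At 11-18 nt its sense strand ranged from 1.04 to 3.07 RPM over the 9 samples, and its antisense strand was at 3.18 RPM in PD and 4.78 RPM in RS against 0.71 to 1.91 RPM in the other 7 samples. SYNREP_MM had 12 reads of 24-33 nt, all sense, at 0.30 RPM in SG, 0.07 and 0.29 RPM in LZ and 0.08 RPM in RS, and 0 in PD and in every sample of the technical-replicate set, where 3 reads stood for 0.279 to 1.66 RPM. At 11-18 nt its sense strand stayed at 6.79 to 9.47 RPM in all 9 samples. Antisense SYNREP_MM reads of this length varied more: PD and RS held 5.06 and 7.16 RPM, against 2.15 RPM for SG. The LZ replicates held 2.98 and 2.31 RPM. Samples of the technical-replicate set ranged from 3.085 to 6.055 RPM, and the higher value, from LZ_T replicate 1, exceeded that of PD.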

How the data were processed

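Small RNA libraries were made with the TruSeq small RNA kit. The authors trimmed adapters with cutadapt (version not given in the sources used here), removed abundant noncoding RNAs and miRNAs, and mapped reads to repeat consensus sequences with SeqMap allowing mismatches, dividing reads that matched several. The deposited tables hold the resulting RPM per length and strand; the deposited lists hold raw read counts per distinct sequence of 11 nt or more. In 8 tables, 2 stray rows were dropped. Runs were averaged. The last line of the SG list had no count and was left out, so this list, and the SG reads matched to the exon, may be incomplete.

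The members and lists were chosen with earlier results of these data known. RPM was fitted as log2(RPM + 1) with limma 3.58.1 in R 4.3.3 for sequences with a mean of at least 1 RPM, with Benjamini-Hochberg adjustment over all of them. On simulated data with a planted log2 change of 2, 90.3% of changes were found for LZ_T against SG_T (60 sequences) and 99.3% for LZ_T against LZ (139 sequences). For changed sequences under 10 RPM the shares were 84.8% and 98.6%, and on average 4.3% and 3.2% of calls were false. The simulated spread between samples was a fixed value, not taken from these samples, so the rates in the real data may be worse. The satellite differences in these comparisons were smaller than 2, so these rates do not say how often such differences would be found. The named sequences were the 4 satellites, L1_Mm_orf2, IAPEz-int, B1_Mm and the 3 most correlated with GSAT_MM and with MMSAT4. Read ratios used summed reads with exact 95% intervals. Reads were compared with the exon on both strands without gaps. Where nothing says that samples came from separate animals, p-values measure only the spread between these samples. Alternatives covered the pseudocount, filter, scaling, runs, strand, replicate block and left-out samples.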

Additional observations from a re-analysis of the deposited data

How the results depend on the processing

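Of 163 values recomputed under other settings, 129 kept their direction and their side of the threshold or range. For GSAT_MM in LZ_T against LZ (log2 difference 1.33), the call was lost with no filter on low values (1.33, limma adjusted p = 0.0537), after rescaling to 20-23 nt reads (0.92, adjusted p = 0.0762) and with the 50-bp run only (0.87, adjusted p = 0.0883); without 1 sample the difference ranged from 0.94 to 1.71. MMSAT4 in the same comparison passed with no filter (-0.60, adjusted p = 0.0109) and after rescaling to 20-23 nt reads (-0.94, adjusted p = 0.0159), and ranged from -0.64 to -0.57 without 1 sample, passing without either LZ replicate. Without 1 sample, 3 to 5 sequences were higher and 107 to 127 lower in LZ_T than in LZ; 63 were lower with a filter of 10 RPM.

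GSAT_MM in LZ_T against SG_T turned to -1.16 after rescaling to the listed retrotransposon total, and ranged from 0.58 to 1.35 without 1 sample, passing without LZ_T replicate 2. In this comparison 12 sequences were higher with no filter and 0 after that rescaling; sequences lower numbered 52 after it, 1 with no filter, with the 100-bp run or with a pseudocount of 0.1 RPM, and 3 with the replicate block. The interaction turned to -1.01 for GSAT_MM and -0.61 for MMSAT4 after the same rescaling, and MMSAT4 passed with sense reads only (1.67, adjusted p = 0.046).

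Same-numbered samples did not deviate together (r = 0.0482 for SG_T and LZ_T, -0.16 for LZ and LZ_T), so the numbers were not taken as pairs. With the replicate block 31 sequences were higher in LZ_T than in SG_T and GSAT_MM passed (0.96, adjusted p = 0.00619). The crossed pairing of LZ and LZ_T, added after seeing the data, gave 5 higher and 127 lower. The GSAT_MM antisense share differed by 6.46 points between LZ_T and SG_T (exact permutation p = 0.667), -8.94 to 21.9 without 1 sample, and by 2.70 points between LZ_T and LZ replicate 1 alone (exact permutation p = 1), because LZ replicate 2 was under the minimum of 1 RPM. Without that minimum, a setting added after seeing the data, LZ_T was at -26.9 points against both LZ replicates (exact permutation p = 0.667). The value of 2.70 points also changed sign, to -9.17 with the 50-bp run only, and ranged from -7.78 to 13.2 without 1 sample. After rescaling to 20-23 nt reads MMSAT4 was 0.391 times SG in LZ and 4.86 times LZ in PD; after rescaling to the listed total it was 2.67 times LZ in PD and 0.965 times PD in RS. The cause of these changes was not tested. With 1 to 88 reads per sample, depth limits every ratio.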
